A study of Mus musculus with 21 samples.

Results

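The genes described here are 39 genes of the NF-kB, chemokine and interferon response, followed across cumulus-oocyte complexes (COCs) of the mouse during maturation in culture. They were taken by name from a table of 56980 genes: NF-kB subunits (Nfkb1, Nfkb2, Rel, Rela, Relb), IkB proteins (Nfkbia, Nfkbib, Nfkbie, Nfkbiz), feedback and survival targets (Tnfaip2, Tnfaip3, Tnf, Birc3, Traf1), adhesion receptors (Icam1, Vcam1), chemokines (Cxcl1, Cxcl2, Cxcl5, Cxcl10, Cxcl12, Ccl2, Ccl7, Ccl20), colony-stimulating factors (Csf1, Csf2), interferon and STAT regulators (Irf1, Irf7, Irf9, Stat2, Stat3, Socs3) and interferon-induced effectors (Ifit1, Ifit2, Ifit3, Isg15, Bst2, Slfn2, Slfn4). Each name matched 1 gene, 33 of the 39 had enough counts to be tested, and 18192 genes were tested in all. A COC is an oocyte enclosed by cumulus granulosa cells, and RNA was taken from whole complexes of wild-type mouse ovary, so oocyte and cumulus RNA stand together in every value. START is complexes at 0 h with no treatment. The other groups were cultured for 4, 8 or 12 h in medium with epidermal growth factor and 5% fetal bovine serum, with either DMSO solvent (CTL) or 10 µM of a proprotein convertase inhibitor (PCI), an agent against the enzymes that cleave secreted and membrane proproteins. The labels describe the same medium for the 0 h samples and do not say whether START met it before RNA was taken. Every cultured group shared serum, growth factor and DMSO, so time in culture and these additions cannot be told apart. Each of the 7 groups had 3 libraries that the labels call biological replicates; the sources used here give neither the strain and age of the mice nor the number of complexes per library.

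NF-kB is a family of dimeric transcription factors held in the cytoplasm by IkB proteins until signals from tumour necrosis factor, interleukin-1 or pathogen receptors lead to IkB breakdown. Its targets include chemokines, adhesion receptors and its own inhibitors, so a short burst of activity is followed by feedback. Interferons act through JAK kinases and STAT proteins, and a complex that holds IRF9 binds interferon-stimulated response elements and switches on antiviral genes. In the ovary, cumulus expansion after the ovulatory signal is known to share many features with an inflammatory response, including cytokine and matrix gene expression.

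Library totals ran from 19458618 to 37491828 counts. Levels are in CPM, counts scaled to library size, and a gene is called higher or lower where the adjusted p of edgeR's quasi-likelihood test was under 0.05. Libraries of START and of PCI at 4 h spread most, with a median SD over all tested genes of 0.44 on the log2 CPM scale in each, against 0.23 to 0.28 in the other 5 groups. The 12 oocyte markers (Gdf9, Bmp15 and others) and 13 cumulus and granulosa markers were all detected in every group. The oocyte markers summed to 3222 to 13317 CPM over the START libraries, 3750 to 14116 CPM in PCI at 4 h, 1692 to 2524 CPM in CTL at 12 h and 2212 to 3609 CPM in PCI at 12 h. Of 12 leukocyte markers, the summed level was 4.55 to 27.9 CPM per library, with 5.94 to 12.6 CPM in START and 12.5 to 16.0 CPM in CTL at 12 h. From START to CTL 12 h, 2 of the 7 tested leukocyte markers were called higher and 3 lower. Among them the mean of the macrophage gene Cd68 was 1.33 and 10.1 CPM, and that of Ptprc, which encodes the pan-leukocyte antigen CD45, 1.05 and 0 CPM.

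Tnf, Cxcl10, Ccl7, Ccl20, Csf2 and Ifit3 were too low to judge. Over all 21 libraries Ccl20, a ligand of CCR6, had 0 counts, where 3 counts in a library would correspond to 0.0800 to 0.154 CPM. Ccl7, a monocyte chemokine, had 2 counts. Csf2, which encodes granulocyte-macrophage colony-stimulating factor, had 6 counts in 2 libraries. The cytokine gene Tnf had 13 counts in 4 libraries, 7 of them in 1 library. Ifit3 had 27 counts in 8 libraries, and Cxcl10, the interferon-induced ligand of CXCR3, had 34 counts in 11 libraries. At these depths a difference between groups was not detectable for any of the 6.

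Promoters of 32 of the 39 genes were found in RefSeq (GRCm38.p6) as windows of 300 bases, from 250 before to 50 after the start site. The core of the interferon-stimulated response element, GAAA, any 2 bases and GAAA on either strand, occurred in the windows of Isg15, Ifit1, Ifit3, Stat2, Bst2 and Cxcl10, which is 6 of the 32, against 3.44% of 32851 promoters in the same table. A kappa-B core, GGGA, any 2 bases and TTCC on either strand, occurred in 7 of the 32 (Cxcl1, Cxcl2, Cxcl10, Nfkb2, Nfkbia, Csf1 and Ifit2) against 1.47%. A STAT core, TTCCNGGAA, occurred in 3 (Icam1, Ifit2 and Bst2) against 1.15%. The percentages count single windows, while a gene of the 32 was counted where any of its windows matched. Some of the 32, such as Nfkb2 and Ifit2, had several windows, so the 2 measures are not alike. A match describes the letters of the window and is not a measured binding site. The windows below belong to 3 interferon-type genes that rose between 4 and 8 h and to 2 NF-kB targets that were highest before culture; capitals mark the response-element cores in the first 3 and the kappa-B cores in the last 2. Isg15 lies at chr4:156200769-156201068 (minus strand), with 3 overlapping cores that begin 78, 72 and 66 bases before the start site. Ifit1 lies at chr19:34640639-34640938 (plus strand), with cores 104 and 85 bases before it, and Stat2 at chr10:128270248-128270547 (plus strand), with a core 222 bases before it. Cxcl1 lies at chr5:90890995-90891294 (plus strand), where 2 matches on opposite strands overlap at 71 and 70 bases before the start site, and Nfkbia at chr12:55492598-55492897 (minus strand), with a core 29 bases before it.
Isg15: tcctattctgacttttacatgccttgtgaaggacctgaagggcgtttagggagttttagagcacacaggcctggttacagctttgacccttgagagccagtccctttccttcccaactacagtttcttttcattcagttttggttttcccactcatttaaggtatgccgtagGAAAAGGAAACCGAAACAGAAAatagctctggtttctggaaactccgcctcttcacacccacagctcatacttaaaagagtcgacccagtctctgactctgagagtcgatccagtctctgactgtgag
Ifit1: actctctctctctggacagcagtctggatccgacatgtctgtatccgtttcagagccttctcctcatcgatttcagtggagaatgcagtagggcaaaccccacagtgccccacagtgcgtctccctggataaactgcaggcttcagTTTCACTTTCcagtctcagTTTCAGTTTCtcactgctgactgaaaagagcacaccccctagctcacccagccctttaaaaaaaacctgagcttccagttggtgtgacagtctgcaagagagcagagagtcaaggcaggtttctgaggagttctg
Stat2: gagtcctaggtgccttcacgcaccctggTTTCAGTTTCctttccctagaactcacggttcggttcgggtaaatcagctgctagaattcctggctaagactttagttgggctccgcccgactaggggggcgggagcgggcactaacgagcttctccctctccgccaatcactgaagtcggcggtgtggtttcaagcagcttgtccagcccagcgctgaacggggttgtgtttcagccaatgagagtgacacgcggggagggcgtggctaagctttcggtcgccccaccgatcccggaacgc
Cxcl1: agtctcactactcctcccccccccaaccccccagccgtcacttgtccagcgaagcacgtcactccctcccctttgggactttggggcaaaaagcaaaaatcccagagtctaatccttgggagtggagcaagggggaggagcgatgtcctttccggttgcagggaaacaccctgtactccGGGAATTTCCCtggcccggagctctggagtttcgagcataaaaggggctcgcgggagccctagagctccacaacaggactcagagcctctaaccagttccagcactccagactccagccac
Nfkbia: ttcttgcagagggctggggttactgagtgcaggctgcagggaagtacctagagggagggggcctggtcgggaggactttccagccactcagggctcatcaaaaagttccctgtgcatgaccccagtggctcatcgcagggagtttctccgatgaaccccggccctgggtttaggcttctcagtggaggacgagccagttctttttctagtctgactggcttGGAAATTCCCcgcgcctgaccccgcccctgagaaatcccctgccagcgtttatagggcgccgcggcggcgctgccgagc

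In control culture the genes did not move one way. Against START, 15 of the 33 tested genes were called at CTL 4 h, 5 higher and 10 lower, where 31.5% of all tested genes were called (16.2% higher and 15.3% lower). At CTL 8 h 22 were called, 9 higher and 13 lower, with 41.3% of all genes called (20.7% and 20.6%). At CTL 12 h 22 were again called, 10 higher and 12 lower, with 51.0% of all genes called (25.1% and 26.0%). The median log2 change of the 33 genes was −0.51, −0.36 and −0.24 at the 3 times, against −0.05, −0.08 and −0.06 for all tested genes. The 3 comparisons share the START libraries. Between CTL 4 h and CTL 8 h 11 were called, 7 higher and 4 lower (23.2% of all genes; 12.1% and 11.1%). Between CTL 8 h and CTL 12 h 4 rose and 0 fell (8.80% of all genes; 4.63% and 4.17%; at an unadjusted p under 0.05 8 of the 33 passed). In whole complexes, fewer cells of a type and less RNA per cell cannot be told apart. The heat map shows the tested genes in every library.

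**Figure D1:**
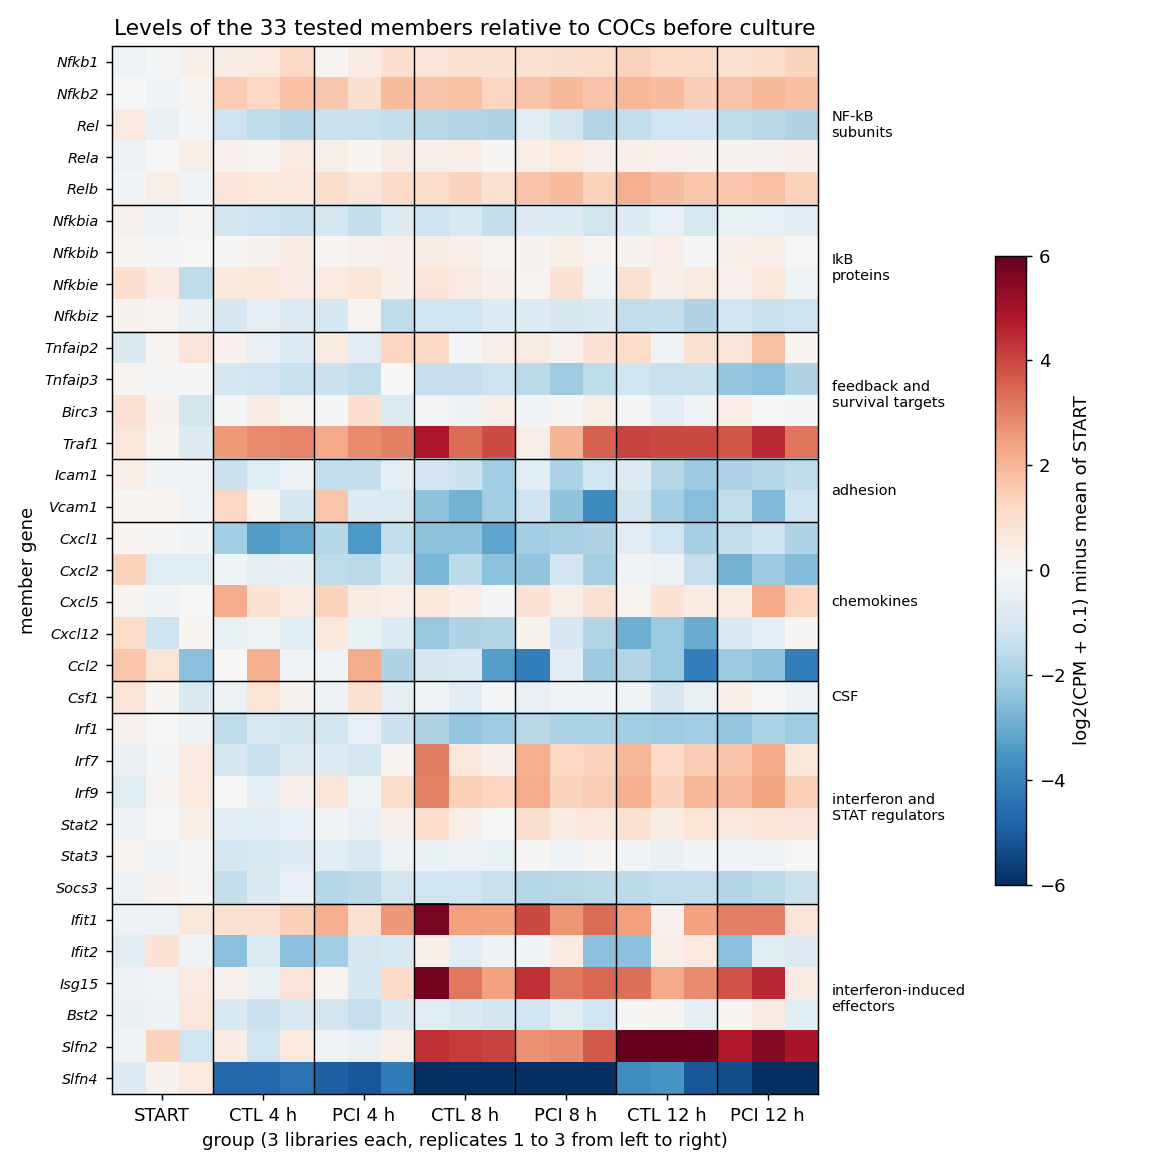
Heat map of the 33 tested genes (vertical axis, grouped by role) in the 21 libraries (horizontal axis, 3 per group). Colour is log2(CPM + 0.1) minus the START mean of the gene, with the scale ending at −6 and 6. Slfn4 is blue in every cultured library, Slfn2 turns red at 8 and 12 h, and Nfkb2 and Traf1 are above START in nearly all cultured libraries.

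Among the NF-kB subunits, 3 rose in culture and 1 fell. Nfkb2, which encodes the p100 precursor of p52 in the non-canonical pathway, stood at 15.1, 13.2 and 15.9 CPM in START, at 42.5, 35.2 and 49.8 CPM in CTL at 4 h and at 59.0, 53.5 and 41.1 CPM in CTL at 12 h. Every cultured control library was above every START library, and the log2 change was 1.53 ± 0.21 (SE) at 4 h (adjusted p = 1.23e-05), 1.61 ± 0.21 at 8 h and 1.80 ± 0.21 at 12 h (1.11 with the oocyte covariate, still called). That covariate is the mean log2 CPM of the 12 oocyte markers in each library. Relb, the partner of p52, rose in steps, from 6.91, 9.97 and 6.65 CPM in START to 13.3, 12.0 and 11.9 CPM in CTL at 4 h, 16.4, 19.8 and 14.6 CPM at 8 h and 35.7, 28.0 and 25.1 CPM at 12 h. Its groups did not overlap from one time to the next. The log2 change against START was 0.66 ± 0.21, 1.11 ± 0.21 and 1.91 ± 0.21 (adjusted p = 0.0182, 0.000299 and 6.24e-07), and it rose again from CTL 8 h to CTL 12 h, by 0.80 ± 0.20 (adjusted p = 0.0202). Nfkb1, which encodes the p105 precursor of p50, stood at 8.74, 10.2 and 13.1 CPM in START libraries and at 14.2, 15.6 and 24.9 CPM after 4 h in CTL, so the groups did not overlap, and the third CTL library was far above the other 2. It was higher by 0.77 ± 0.23, 0.83 ± 0.24 and 1.23 ± 0.24 on the log2 scale at the 3 times (adjusted p = 0.0154, 0.00854 and 0.000278), the last with 0.70 and an adjusted p of 0.165 under the oocyte covariate.

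Rel, which encodes the c-Rel subunit best known from lymphocytes, went the other way. It stood at 49.9, 24.4 and 30.3 CPM in START, at 14.1, 11.5 and 10.1 CPM in CTL at 4 h and at 10.3, 9.85 and 9.48 CPM at 8 h, with no overlap. The log2 change was −1.55 ± 0.26 at 4 h (adjusted p = 0.000109), −1.82 ± 0.26 at 8 h and −1.35 ± 0.26 at 12 h. Rela, the p65 subunit of the canonical dimer, was called in 0 of the 12 comparisons (edgeR; 0 at an unadjusted p under 0.05; 0 by DESeq2), with 122 to 194 CPM in START and 163 to 228 CPM over the cultured libraries. Without START replicate 3 it was called higher at the 3 control times (0.49, 0.42 and 0.41; adjusted p = 0.0182, 0.0308 and 0.0281). The early calls of Nfkb1 and Relb were not stable. At 4 h Nfkb1 lost its call without START replicate 1 or 2 or CTL 4 h replicate 3 (log2 change 0.48 to 0.74; adjusted p 0.0527 to 0.146) and with only the compared groups in the fit (adjusted p = 0.150). Relb lost its 4 h call without START replicate 1 or 3 or CTL 4 h replicate 1 (0.56 to 0.59; adjusted p 0.0627 to 0.0763), with library size as the only scaling (adjusted p = 0.0612), with no count filter (0.0921) and with only the compared groups in the fit (0.179). The rise of Relb from 8 to 12 h was lost without CTL 8 h replicate 1 or 3 or CTL 12 h replicate 1 (0.65 to 0.78; adjusted p 0.0850 to 0.109), with no count filter (0.0790) and with the oocyte covariate (0.129). In PCI culture Relb rose from 4 to 8 h (0.68 ± 0.20; adjusted p = 0.0183), a call lost without PCI 4 h replicate 2 or PCI 8 h replicate 1 or 2 (0.56 to 0.67; adjusted p 0.0540 to 0.0878), with no count filter (0.0619), with the oocyte covariate (0.0689) and with only the compared groups in the fit (0.0814).

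Of the 4 IkB genes, Nfkbia and Nfkbiz fell and Nfkbib and Nfkbie were not called at any time. Nfkbia encodes IkB-alpha, the inhibitor that NF-kB itself induces and whose loss frees the dimer. It stood at 140, 91.4 and 120 CPM in START, at 53.0, 48.2 and 46.0 CPM in CTL at 4 h and at 67.6, 82.7 and 58.8 CPM at 12 h. All 9 cultured control libraries were below all 3 START libraries, and the log2 change was −1.26 ± 0.19 at 4 h (adjusted p = 3.66e-05), −1.20 ± 0.19 at 8 h and −0.75 ± 0.19 at 12 h (adjusted p = 0.00281). Nfkbiz, a nuclear IkB that modulates NF-kB at a subset of promoters, stood at 143, 141 and 95.3 CPM in START, at 62.5, 85.6 and 71.0 CPM in CTL at 4 h and at 43.9, 46.5 and 35.9 CPM at 12 h. The groups did not overlap, and it was lower by −0.79 ± 0.29, −1.07 ± 0.29 and −1.58 ± 0.30 on the log2 scale (adjusted p = 0.0454, 0.00661 and 0.000219). The 4 h call of Nfkbiz was lost without START replicate 1 or 2 or CTL 4 h replicate 1 or 3 (adjusted p 0.112 to 0.143), with RLE size factors (0.0512) and with no count filter (0.0538). The 12 h call was lost with the oocyte covariate (−0.23, adjusted p = 0.679). Nfkbib stayed between 27.9 and 40.9 CPM over all 21 libraries. Nfkbie was 6.48, 4.56 and 1.06 CPM in START, a wider range than the 3.94 to 6.06 CPM of the 9 control libraries in culture.

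Among the feedback and survival targets, Traf1 rose and Tnfaip3 fell. Traf1, a signalling adaptor at tumour necrosis factor receptors and a known NF-kB target, stood at 0.931, 0.623 and 0.273 CPM in START, at 3.73, 4.61 and 4.84 CPM in CTL at 4 h and at 10.9, 9.97 and 10.1 CPM at 12 h. No cultured control library overlapped START, and the log2 change was 2.84 ± 0.63, 4.25 ± 0.65 and 4.07 ± 0.65 at the 3 times (adjusted p = 0.00149, 3.95e-05 and 4.20e-05), with 4.88 and 6.04 at 8 and 12 h under the oocyte covariate. At 8 h the control libraries were uneven, at 18.9, 6.47 and 9.77 CPM. Tnfaip3, which encodes the deubiquitinase A20 that restrains NF-kB, stood at 28.4, 23.2 and 24.2 CPM in START libraries and at 12.3, 11.3 and 10.1 CPM after 4 h in CTL, with no overlap. It was lower by −1.17 ± 0.31, −1.35 ± 0.31 and −1.29 ± 0.31 on the log2 scale (adjusted p = 0.00567, 0.00174 and 0.00178; −2.10 at 12 h with the oocyte covariate). In PCI it was also called lower from 4 to 8 h (−0.99 ± 0.31; adjusted p = 0.0230), and PCI 4 h replicate 3, at 25.7 CPM against 10.2 and 8.87 CPM, carried it: without that library the change was −0.34 (adjusted p = 0.275). The call was also lost without PCI 8 h replicate 1 (0.0508) or 2 (0.104) and with only the compared groups in the fit (0.159). Tnfaip2, a tumour necrosis factor-induced gene, stayed under 2 CPM in every library (highest 1.76 CPM) and was not called.

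Birc3, which encodes the ubiquitin ligase cIAP2, and Csf1, which encodes macrophage colony-stimulating factor, were called in 0 of the 12 comparisons (edgeR; 0 for each at an unadjusted p under 0.05; 0 by DESeq2), and their libraries varied widely within groups. Birc3 stood at 518, 332 and 134 CPM in the START libraries, whose 12 oocyte markers summed to 13317, 8482 and 3222 CPM. Csf1 stood at 59.6, 37.4 and 18.4 CPM in the same libraries. In PCI at 4 h the oocyte sums were 5954, 14116 and 3750 CPM, Birc3 262, 573 and 162 CPM and Csf1 26.8, 66.0 and 23.0 CPM. For each of these genes the 3 libraries stood in the same order as the oocyte sum in 7 of 7 groups, and of the other tested genes the next was Nfkbiz, with 4 of 7. Every gene of a library shares its depth and scaling, so this order is a description. With the oocyte covariate, which is a mean of log2 CPM and not this sum, both were called higher at CTL 12 h against START. Birc3 was higher by 2.19 (adjusted p = 4.82e-06, and −0.49 without the covariate) and Csf1 by 1.82 (adjusted p = 0.000109, and −0.69 without it).

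**Figure D2:**
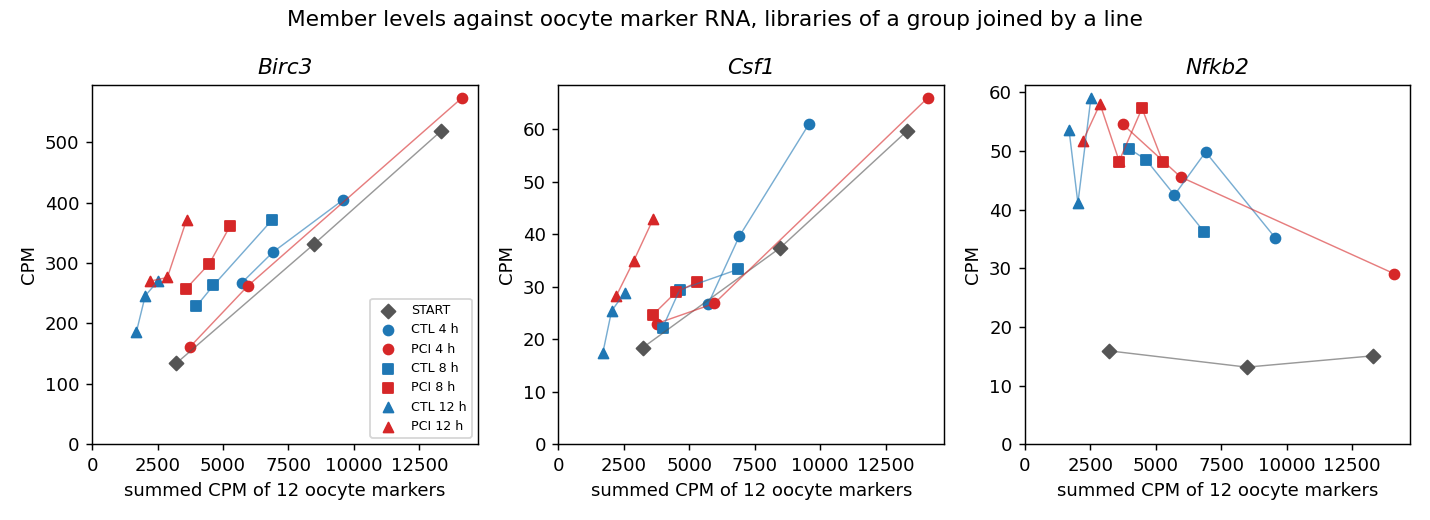
Levels of Birc3, Csf1 and Nfkb2 (CPM, vertical axes) against the summed CPM of 12 oocyte markers (horizontal axes), 1 point per library, with the 3 libraries of a group joined in order of the marker sum. Birc3 and Csf1 climb with the oocyte sum in all 7 groups, and Nfkb2 in 0 of 7.

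Of the 2 adhesion receptors, 0 were called at CTL 4 h (edgeR; 0 at an unadjusted p under 0.05; 0 by DESeq2) and 2 were lower than START at 8 and at 12 h. Of the 8 chemokines 5 could be tested, of which 1 was higher and 1 lower at CTL 4 h and 3 were lower at 8 and at 12 h. Of all tested genes 16.2% were higher and 15.3% lower at 4 h, near the chemokine counts of that time. At 8 and 12 h 20.6% and 26.0% of all genes were lower. Icam1, an endothelial and granulosa ligand of leukocyte integrins, stood at 7.24, 4.82 and 4.50 CPM in START libraries and at 2.42, 2.17 and 1.20 CPM after 8 h in CTL, with no overlap. It was lower by −1.52 ± 0.43 at 8 h (adjusted p = 0.00818) and −1.55 ± 0.43 at 12 h (adjusted p = 0.00533), the latter with an adjusted p of 0.0593 under the oocyte covariate. Vcam1, a ligand of integrin alpha-4, was 4.72, 4.79 and 3.79 CPM in START and uneven at 4 h, with 10.6, 4.74 and 2.07 CPM in CTL and 14.3, 2.51 and 2.45 CPM in PCI. By CTL 8 h it stood at 0.754, 0.533 and 0.948 CPM, below every START and CTL 4 h library. The log2 change was −2.57 ± 0.76 against START (adjusted p = 0.0115; 0.0510 without CTL 8 h replicate 2) and −2.95 ± 0.77 against CTL 4 h (adjusted p = 0.0104). The latter fell short of the threshold when CTL 4 h replicate 1 (−2.17; adjusted p = 0.0618) or CTL 8 h replicate 2 (−2.76; adjusted p = 0.0553) was left out. The fall from PCI 4 h to PCI 8 h (−2.79 ± 0.76; adjusted p = 0.0111; −3.64 without PCI 8 h replicate 1) was lost without PCI 4 h replicate 1 (−1.42; adjusted p = 0.143) and with only the compared groups in the fit (0.0710). At CTL 12 h it was −1.86 ± 0.73 (adjusted p = 0.0405), a call lost without START replicate 1 or 2 or CTL 12 h replicate 2 or 3 (adjusted p 0.0765 to 0.135), with no count filter (0.108) and with the oocyte covariate (−3.01; 0.125).

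Cxcl1, a neutrophil-attracting chemokine, stood at 25.0, 23.9 and 20.5 CPM in START libraries and at 5.28, 2.16 and 2.60 CPM after 4 h in CTL. It then climbed to 14.8, 9.86 and 5.78 CPM at CTL 12 h, still below every START library. The log2 change was −2.79 ± 0.45 at 4 h (adjusted p = 6.50e-05), −2.68 ± 0.45 at 8 h (adjusted p = 9.24e-05) and −1.19 ± 0.42 at 12 h (adjusted p = 0.0240; −2.20 with the oocyte covariate). The rise from 8 to 12 h was 1.49 ± 0.43 (adjusted p = 0.0371). The 12 h call was lost without START replicate 1 or 2 or CTL 12 h replicate 2 or 3 (adjusted p 0.0535 to 0.112). The rise was lost in 5 of 6 leave-outs, that is without CTL 8 h replicate 1, 2 or 3 or CTL 12 h replicate 1 or 2 (1.12 to 1.61; adjusted p 0.0574 to 0.168), and with the oocyte covariate (0.81; 0.383). Cxcl2, a close paralog with the same receptor, stood at 2.33, 0.459 and 0.512 CPM in START libraries and at 0.0397, 0.213 and 0.0729 CPM after 8 h in CTL. It was lower by −3.27 ± 0.76 (adjusted p = 0.00206), by −2.10 without START replicate 1, the highest library, and by −4.17 without CTL 8 h replicate 2. The fall of Cxcl2 from CTL 4 h to CTL 8 h (−2.37 ± 0.76; adjusted p = 0.0311; −3.28 without CTL 8 h replicate 2) was lost without any of CTL 4 h replicates 1 to 3 or CTL 8 h replicate 1 or 3 (adjusted p 0.0514 to 0.111), with no count filter (0.0520) and with the oocyte covariate (0.0727).

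Cxcl5, a further ligand of CXCR2, was the chemokine that rose at 4 h, and 1 library carried much of it. It stood at 8.67, 7.02 and 8.15 CPM in START libraries and at 37.6, 14.4 and 11.3 CPM after 4 h in CTL. The log2 change was 1.41 ± 0.44 (adjusted p = 0.0185), and without CTL 4 h replicate 1 it was 0.68 (adjusted p = 0.259). The call was also lost without START replicate 2 (0.0675), with no count filter (0.0511) and with only the compared groups in the fit (0.0510). Cxcl12, the ligand of CXCR4, stood at 3.02, 0.525 and 1.50 CPM in START, at 0.967, 1.16 and 0.772 CPM in CTL at 4 h and at 0.0946, 0.213 and 0.0876 CPM at 12 h. It was lower by −2.55 ± 0.66 at CTL 8 h (adjusted p = 0.00458) and −3.58 ± 0.71 at CTL 12 h (adjusted p = 0.000354), and by −1.82 and −2.85 without START replicate 1, with both calls kept. Ccl2, the monocyte chemokine MCP-1, spanned 0.205 to 5.42 CPM in START and was called lower at CTL 12 h (−3.57 ± 1.34; adjusted p = 0.0329). That call was lost without START replicate 1 or 2 or any CTL 12 h library (−4.21 to −2.71; adjusted p 0.0513 to 0.126) and with no count filter (0.113), and with the oocyte covariate the sign turned (3.30; adjusted p = 0.241).

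Among the interferon and STAT regulators, Irf1, Socs3 and Stat3 were lower at 4 h. Irf1, a transcription factor induced by interferon-gamma and NF-kB, stood at 154, 129 and 103 CPM in START, at 43.8, 68.3 and 58.4 CPM in CTL at 4 h, at 35.7, 25.8 and 29.2 CPM at 8 h and at 29.5, 29.2 and 30.5 CPM at 12 h. Each drop up to 8 h left no overlap, and the log2 change was −1.18 ± 0.21 at 4 h (adjusted p = 0.000215), −2.09 ± 0.22 at 8 h and −2.12 ± 0.22 at 12 h (−1.23 with the oocyte covariate). Socs3, the feedback inhibitor of interleukin-6 type STAT3 signalling, stood at 25.2, 39.2 and 34.1 CPM in START libraries and at 12.0, 17.5 and 22.9 CPM after 4 h in CTL. It was lower by −0.91 ± 0.23, −1.27 ± 0.23 and −1.53 ± 0.23 on the log2 scale (adjusted p = 0.00381, 0.000211 and 2.16e-05), the first with an adjusted p of 0.0581 where only the compared groups were fitted. Stat3 itself dipped and came back, with 347, 285 and 337 CPM in START, then 153, 167 and 186 CPM after 4 h in CTL and 241, 251 and 247 CPM after 8 h. The drop was −0.94 ± 0.16 (adjusted p = 0.000108) and the rise from 4 to 8 h was 0.55 ± 0.16 (adjusted p = 0.0175), which was lost without CTL 4 h replicate 1 or 2 or CTL 8 h replicate 2 (adjusted p 0.0558 to 0.0585). In PCI the rise from 4 to 8 h was 0.59 ± 0.16 (adjusted p = 0.00902; 0.0543 without PCI 4 h replicate 2 and 0.0821 with only the compared groups in the fit). Irf1 fell again from 4 to 8 h in both arms, by −0.91 ± 0.21 in CTL (adjusted p = 0.00509) and −0.89 ± 0.21 in PCI (adjusted p = 0.00461; 0.0789 with the oocyte covariate).

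**Figure D3:**
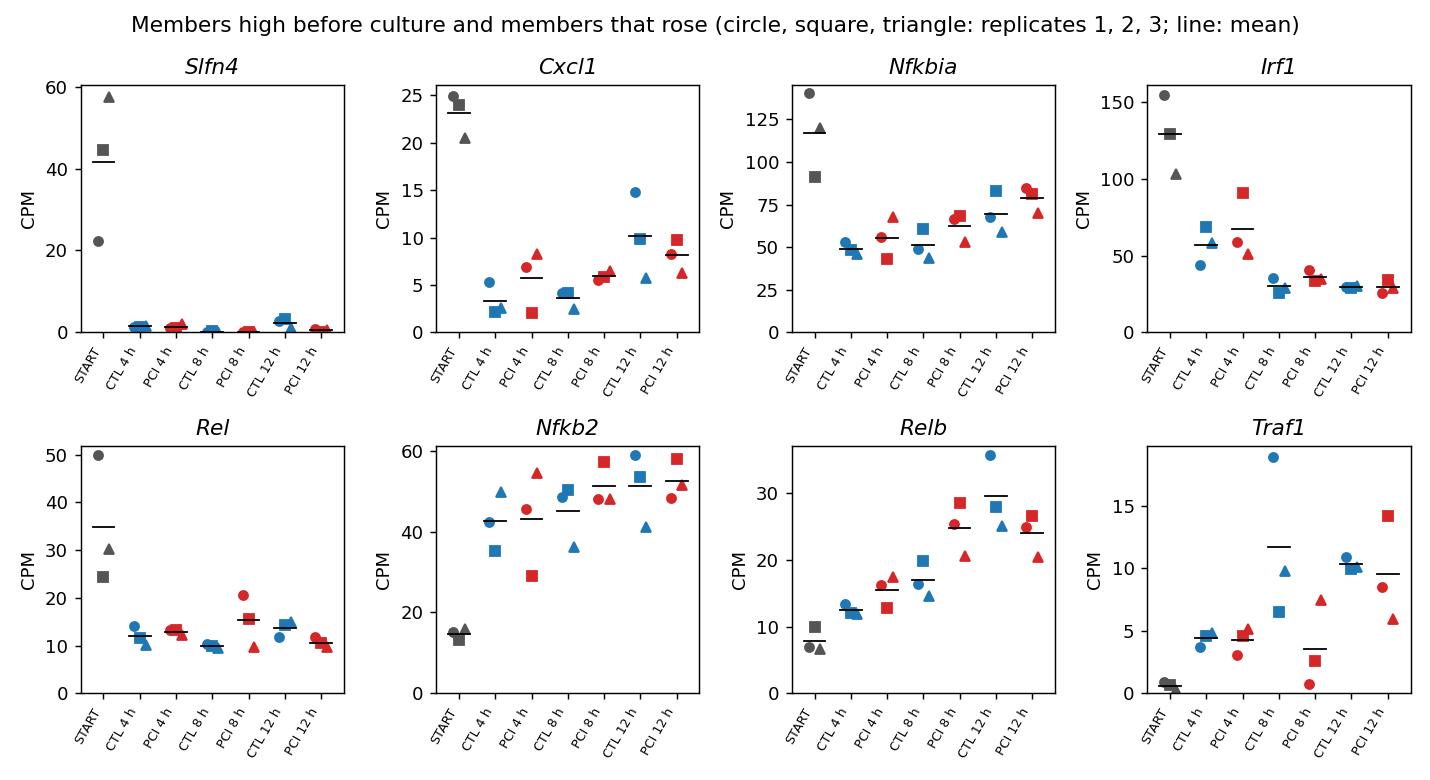
Levels (CPM, vertical axes from 0) of Slfn4, Cxcl1, Nfkbia, Irf1, Rel, Nfkb2, Relb and Traf1 in each of the 7 groups, 1 symbol per library and a line at the mean of 3. The first 5 genes are highest in START, where Slfn4 reaches 57.5 CPM, and the last 3 are lowest there.

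Between 4 and 8 h of control culture 7 of the 12 tested interferon and STAT regulators and effectors rose and 2 fell, where 12.1% of all genes rose and 11.1% fell. Those that rose were Irf7, Irf9, Stat2, Stat3, Ifit1, Isg15 and Slfn2, and those that fell were Irf1 and Slfn4, while Socs3, Bst2 and Ifit2 were not called. Isg15, a ubiquitin-like protein and a standard interferon readout, stood at 0.311, 0.161 and 0.491 CPM in CTL at 4 h and at 18.0, 2.99 and 1.71 CPM at 8 h. Irf7, the master regulator of type I interferon genes, went from 2.62, 2.13 and 3.12 CPM to 46.4, 8.71 and 6.67 CPM. Irf9, the DNA-binding part of the STAT complex, went from 8.11, 5.42 and 9.86 CPM to 62.3, 21.1 and 19.1 CPM. None of these groups overlapped, and in each CTL 8 h replicate 1 was far above the other 2 libraries. Stat2 went from 16.3, 15.5 and 17.9 CPM to 52.3, 31.5 and 25.3 CPM, and Ifit1, which binds viral RNA, from 0.138, 0.129 and 0.246 CPM to 6.42, 0.605 and 0.584 CPM. The log2 change from 4 to 8 h was 4.55 ± 0.99 for Isg15 (adjusted p = 0.00335), 2.97 ± 0.62 for Irf7 (adjusted p = 0.00241), 2.13 ± 0.46 for Irf9 (adjusted p = 0.00333), 1.13 ± 0.25 for Stat2 (adjusted p = 0.00401) and 3.86 ± 1.07 for Ifit1 (adjusted p = 0.0148). Without CTL 8 h replicate 1 the changes were 2.86, 1.55, 1.37 and, for Ifit1, 1.78; Isg15, Irf7, Irf9 and Stat2 were still called and Ifit1 was not (adjusted p = 0.224). Leaving out CTL 4 h replicate 1 (adjusted p = 0.0521) or 2 (0.0624) also ended the call of Ifit1.

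In PCI culture Isg15, Irf7, Stat2, Stat3 and Slfn2 rose from 4 to 8 h. Isg15 went from 0.287, 0.0698 and 0.662 CPM at PCI 4 h to 7.07, 2.97 and 3.63 CPM at PCI 8 h, with a log2 change of 3.72 ± 0.96 (adjusted p = 0.00816; 4.62 without PCI 4 h replicate 3; adjusted p 0.0710 with the oocyte covariate). Irf7 went from 3.09, 2.55 and 5.89 CPM to 24.9, 13.1 and 14.1 CPM, a change of 2.17 ± 0.60 (adjusted p = 0.0114). The groups did not overlap for either gene. The Irf7 call was lost without PCI 4 h replicate 2 (0.0536) or PCI 8 h replicate 1 (0.0541), with no count filter (0.0549) and with the oocyte covariate (0.110). Stat2 rose by 0.83 ± 0.25 (adjusted p = 0.0197), lost without PCI 4 h replicate 1 or 2 or PCI 8 h replicate 1 (adjusted p 0.0623 to 0.0986), with only the compared groups in the fit (0.0563) and with the oocyte covariate (0.171). Irf9 was not called (1.12 ± 0.45; adjusted p = 0.0710; 0.0402 without PCI 4 h replicate 3 and 0.0458 with DESeq2). In all, 10 of the 33 genes were called from PCI 4 h to PCI 8 h, 6 higher and 4 lower, with 27.4% of all genes called (12.3% and 15.2%). From PCI 8 h to PCI 12 h 0 were called by edgeR, with 2.37% of all genes called (1.38% higher and 0.995% lower); at an unadjusted p under 0.05 4 of the 33 passed, and DESeq2 called Bst2, Slfn2 and Slfn4 higher.

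Against START, 5 of these 12 genes were higher at CTL 8 h (Irf7, Irf9, Ifit1, Isg15 and Slfn2) and 4 lower (Irf1, Socs3, Bst2 and Slfn4). At CTL 12 h 6 were higher, the same 5 and Stat2, and 3 lower. Of all tested genes 20.7% were higher and 20.6% lower at 8 h, and 25.1% and 26.0% at 12 h. The 3 lower at 12 h are thus near the share of all genes. Isg15 was higher by 4.86 ± 1.01 at CTL 8 h (adjusted p = 0.000828; 3.17 without CTL 8 h replicate 1, still called) and by 3.20 ± 0.98 at CTL 12 h (adjusted p = 0.0104). Irf9 was higher by 2.02 ± 0.46 at 8 h (adjusted p = 0.00181; 1.25 without CTL 8 h replicate 1, still called) and by 1.77 ± 0.46 at 12 h (adjusted p = 0.00345). Ifit1 had 3 counts in START, all in replicate 3, and 195 in CTL at 8 h, 162 of them in replicate 1, a pooled ratio of 72.4 with an exact 95% interval of 24.4 to 354 for counting error only. The 8 h call (adjusted p = 0.000988) was kept without CTL 8 h replicate 1, where the fitted log2 change was 3.98 against 6.06 with it. Without START replicate 3 START had 0 counts, and the fitted change of 9.18 then depends on the prior count. At CTL 12 h it had 34 counts, a ratio of 11.1 (3.48 to 56.3). The 12 h call of Ifit1 (adjusted p = 0.0394) was lost without START replicate 1 or 2 or CTL 12 h replicate 1 or 3 (adjusted p 0.0922 to 0.124). Irf7 was higher by 1.86 ± 0.59 at 8 h (adjusted p = 0.0163), a call lost without START replicate 1 or 2 (adjusted p = 0.0664 and 0.0569) and without CTL 8 h replicate 1 (0.44; adjusted p = 0.485). At 12 h it was higher by 1.55 ± 0.58 (adjusted p = 0.0319), lost without START replicate 1 or 2 or CTL 12 h replicate 1 or 3 (adjusted p 0.0538 to 0.111). Stat2 was called higher at 12 h (0.71 ± 0.25; adjusted p = 0.0245), lost without the same 4 libraries (adjusted p 0.0639 to 0.109). With no count filter the Irf7 calls (0.0712 and 0.126) and the 12 h call of Ifit1 (0.0939) were lost. With only the compared groups in the fit the same held for the 8 h call of Irf7 (0.0879) and the 12 h call of Ifit1 (0.0632). The oocyte covariate took away the 12 h calls of Isg15 (1.79; 0.543), Irf9 (0.46; 0.702), Irf7 (0.49; 0.779), Ifit1 (1.90; 0.552) and Stat2, whose sign turned (−0.16; 0.780), and the 8 h call of Irf7 (1.58; 0.0651). In those comparisons the oocyte sum fell from a mean of 8340 CPM in START to 5158 CPM in CTL at 8 h and 2081 CPM in CTL at 12 h. The covariate is the mean log2 CPM of these markers and not that sum, and single markers changed unequally. In START and CTL 12 h, Zp2 averaged 844 and 30.2 CPM, Gdf9 1742 and 920 CPM and Oosp1 128 and 130 CPM. The part of the oocyte markers in the result was not tested further.

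Bst2, the membrane protein tetherin, and Ifit2 did not follow. Bst2 stood at 73.4, 79.8 and 159 CPM in START, at 51.0, 39.9 and 49.6 CPM in CTL at 4 h and at 102, 111 and 68.2 CPM in CTL at 12 h. It was lower at 4 h by −1.15 ± 0.29 (adjusted p = 0.00481) and at 8 h by −0.98 ± 0.29 (adjusted p = 0.0118), and both calls rested on START replicate 3, without which they were −0.71 (adjusted p = 0.0550) and −0.54 (adjusted p = 0.109). The 8 h call was also lost with no count filter (0.0544). Ifit2 was under 1 CPM in every library and was not called.

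Other interferon-stimulated genes were read from a list of 36. Of 32 tested, 16 rose and 2 fell from CTL 4 h to CTL 8 h, where 12.1% of all genes rose and 11.1% fell. From PCI 4 h to PCI 8 h 11 rose and 1 fell, where 12.3% of all genes rose and 15.2% fell. The median log2 changes were 1.57 and 1.24, against −0.04 and −0.05 for all tested genes. Those that rose in CTL included Parp14 (10.2 against 0.838 CPM; 3.60 ± 0.68), Xaf1 (4.61 against 0.159 CPM; 4.82 ± 0.89) and the RNA sensors Ifih1 (3.56 against 0.645 CPM; 2.46 ± 0.59) and Ddx58 (41.3 against 11.1 CPM; 1.90 ± 0.39), all 4 chosen after their values were seen. Ifi35 rose as well (9.93 against 2.44 CPM; 2.02 ± 0.31). The 2 that fell were Ifit1bl1 (−2.52 ± 0.79), a paralog of Ifit1, and the ubiquitin ligase gene Trim25 (−0.62 ± 0.19). The 32 genes summed to 977 CPM in CTL 8 h replicate 1 against 447 and 421 CPM in replicates 2 and 3, and 29 of the 32 were highest in replicate 1 of that group. Without that library 8 rose and 2 fell from CTL 4 h to CTL 8 h, and the median change was 0.69. Of all 18192 tested genes 1701 then rose and 1366 fell, with a median of −0.03. Oasl2 was already higher at CTL 4 h, with means of 6.03 CPM in START, 103 CPM in CTL at 4 h and 101 CPM at 8 h, a change of 4.09 ± 0.37 at 4 h (adjusted p = 8.01e-08). Means in START and CTL 4 h also went up for Trim25 (70.3 and 146 CPM), Oasl1 (6.42 and 17.2 CPM) and Rtp4 (2.44 and 5.95 CPM). Other genes of the list, such as Parp9 (13.0 and 3.32 CPM), went down.

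Slfn4 was lower than START at all 3 control times and Slfn2 was higher at 8 and 12 h, while both rose from CTL 8 h to CTL 12 h. Slfn4, a myeloid-associated Schlafen gene in the mouse, stood at 22.4, 44.6 and 57.5 CPM in START, at 1.38, 1.39 and 1.68 CPM in CTL at 4 h, at 0.198, 0.320 and 0.182 CPM at 8 h and at 2.84, 3.28 and 1.05 CPM at 12 h. No group overlapped START, and the log2 change was −4.80 ± 0.58 at 4 h (adjusted p = 2.29e-06), −7.44 ± 0.68 at 8 h and −4.10 ± 0.55 at 12 h, with a rise of 3.34 ± 0.63 from 8 to 12 h (adjusted p = 0.00324). These 4 calls were kept in every alternative run; with the oocyte covariate the 12 h change became −5.65 and the rise 2.17. From PCI 4 h to PCI 8 h it fell as well (−3.83 ± 0.72; adjusted p = 0.000922; −4.90 without PCI 8 h replicate 2). The summed leukocyte markers overlapped between the groups in which Slfn4 fell, at 5.94 to 12.6 CPM in START against 4.55 to 10.3 CPM in CTL at 4 h. Of the 7 tested leukocyte markers 1 was called lower and 0 higher between these groups, with means of 1.05 and 0.0806 CPM for Ptprc, 0.572 and 1.87 CPM for Csf1r, 1.33 and 1.29 CPM for Cd68 and 1.91 and 1.60 CPM for Laptm5. The erythroid gene Alas2 was at 43.7 and 9.86 CPM. Their part in the result was not tested. Slfn2, known for keeping T cells quiescent in the mouse, stood at 0.0997, 0.492 and 0 CPM in START, at 0.207, 0 and 0.246 CPM in CTL at 4 h, at 4.64, 4.09 and 3.65 CPM at 8 h and at 22.9, 16.2 and 31.0 CPM at 12 h. Its log2 change was 4.76 ± 0.73 from 4 to 8 h (adjusted p = 0.000238; 4.16 without CTL 4 h replicate 2) and 2.50 ± 0.58 from 8 to 12 h (adjusted p = 0.0118; 3.09 with the oocyte covariate). The second call was lost without CTL 8 h replicate 1 or 3 or CTL 12 h replicate 3 (2.24 to 2.59; adjusted p 0.0520 to 0.0645). Against START it was higher by 4.34 ± 0.70 at CTL 8 h (adjusted p = 7.19e-05) and 6.84 ± 0.75 at CTL 12 h (adjusted p = 5.80e-07), and by 6.24 and 8.74 without START replicate 2, which held 15 of the 18 START counts. From PCI 4 h to PCI 8 h it rose by 3.91 ± 0.75 (adjusted p = 0.00106). Of 4 other Schlafen genes tested, Slfn9 fell (−1.57 ± 0.44; adjusted p = 0.00966) and Slfn14 rose (1.82 ± 0.64; adjusted p = 0.0341) at CTL 4 h against START.

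Few of these genes, and few of all tested genes, were called between PCI and CTL. Between PCI and CTL at 4 h 0 of 33 were called by edgeR and 0 by DESeq2, with 0.132% of all genes called (0.0110% higher and 0.121% lower); 1, Socs3, had an unadjusted p under 0.05 (−0.55 ± 0.23; adjusted p = 0.796). At 8 h 0 were called by edgeR, with 3.67% of all genes called (1.95% higher and 1.72% lower), and Rel, Relb, Cxcl12, Traf1 and Stat3 had an unadjusted p under 0.05. At 12 h 2 were called, Cxcl12 higher and Slfn4 lower, with 1.98% of all genes called (0.588% and 1.40%). Over the mean of the 3 times 1, Cxcl12, was called, with 6.07% of all genes called (2.53% higher and 3.54% lower). The change of the inhibitor's effect with time was called for 0 of 33 by edgeR and by DESeq2, with 0.0605% of all genes called; 6 (Rel, Relb, Tnfaip3, Cxcl2, Cxcl5 and Slfn4) had an unadjusted p under 0.05. These comparisons use the same control libraries as those above. The median SE of a log2 difference over all tested genes was 0.32 at each time. The summed level of the 13 cumulus and granulosa markers was 8272 to 13313 CPM in PCI and 13243 to 21739 CPM in CTL at 4 h, 3161 to 4138 and 5860 to 7650 CPM at 8 h, and 1554 to 1898 and 2797 to 3469 CPM at 12 h. Single markers differed: at 12 h the expansion genes Ptx3 and Has2 averaged 67.9 and 22.6 CPM in PCI against 476 and 107 CPM in CTL, and the receptor genes Fshr and Amhr2 17.4 and 18.4 CPM against 11.7 and 11.2 CPM. Of the 13, 1 was called higher and 2 lower with the inhibitor at 12 h, and 0 higher and 2 lower at 8 h. The leukocyte markers summed to 7.67 to 11.1 CPM in PCI and 12.5 to 16.0 CPM in CTL at 12 h, and 6 stroma markers to 6.96 to 8.89 and 19.0 to 28.3 CPM, neither with overlap. The 12 oocyte markers summed to 3593 to 5277 CPM in PCI and 3981 to 6866 CPM in CTL at 8 h. At 12 h most of the leukocyte sum was Cd68, with means of 6.17 CPM under the inhibitor and 10.1 CPM in control. Csf1r averaged 2.21 and 2.65 CPM there, and Ptprc 0.0103 and 0 CPM. The part of these marker differences in the results that follow was not tested.

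Cxcl12 was higher with the inhibitor. It stood at 2.17, 0.978 and 0.761 CPM in PCI and 0.967, 1.16 and 0.772 CPM in CTL at 4 h, at 1.58, 0.635 and 0.325 CPM and 0.198, 0.320 and 0.328 CPM at 8 h, and at 0.713, 0.861 and 1.44 CPM and 0.0946, 0.213 and 0.0876 CPM at 12 h. The groups overlapped at 4 and 8 h and not at 12 h. The log2 difference was 2.82 ± 0.71 at 12 h (adjusted p = 0.0438) and 1.60 ± 0.38 over the mean of the times (adjusted p = 0.0128). The 12 h call was lost in each of the 6 leave-outs, CTL 12 h and PCI 12 h replicates 1 to 3 (2.49 to 3.38; adjusted p 0.0648 to 0.220), while the call over the mean was kept in all 25 alternatives run (1.34 to 1.79). In PCI at 12 h the leukocyte marker sums, mostly Cd68, were below those of all CTL libraries. Slfn4 stood at 0.868, 0.108 and 0.497 CPM in these PCI libraries. Every CTL library of that time was higher, at 2.84, 3.28 and 1.05 CPM. The difference was −2.27 ± 0.58 (adjusted p = 0.0463), lost without CTL 12 h replicate 1 or 2 or PCI 12 h replicate 2 or 3 (−2.27 to −1.78; adjusted p 0.171 to 0.177), with no count filter (0.0560), with the replicate number as a block (0.0641) and with only the compared groups in the fit (0.0925). Without PCI 12 h replicate 1 it was −3.10 and still called.

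Slfn2, Cxcl2, Tnfaip3 and Traf1 did not pass the adjusted threshold between PCI and CTL at any time. Slfn2 stood at 6.17, 9.86 and 6.68 CPM in PCI at 12 h against 22.9, 16.2 and 31.0 CPM in CTL, with no overlap (−1.62 ± 0.56; adjusted p = 0.195); DESeq2 gave an adjusted p of 0.0140 and a fit of the compared groups alone 0.00751. Cxcl2 stood at 0.0310, 0.108 and 0.0552 CPM against 0.726, 0.640 and 0.263 CPM, again with no overlap (−3.01 ± 0.83; adjusted p = 0.0736; 0.0366 with DESeq2), on 5 counts in all in PCI. Tnfaip3 stood at 4.96, 4.37 and 7.23 CPM against 11.0, 9.84 and 10.0 CPM (−0.90 ± 0.31; adjusted p = 0.194). The PCI libraries of these 3 genes lay wholly below the control libraries at 12 h. They did so too for Slfn2 at 8 h, at 1.41, 1.50 and 2.79 CPM against 4.64, 4.09 and 3.65 CPM (−1.13 ± 0.58; adjusted p = 0.398). Tnfaip3 at 8 h had 8.20, 5.69 and 8.69 CPM against 9.60, 9.60 and 10.4 CPM (−0.39 ± 0.31; adjusted p = 0.657), and Cxcl2 at 4 h 0.223, 0.209 and 0.397 CPM against 0.691, 0.548 and 0.526 CPM (−1.08 ± 0.69; adjusted p = 1). At the remaining times the libraries of these 3 genes overlapped between the arms. The share of all tested genes whose libraries separated in this way was not counted, so the separation is a description only. Traf1 at 8 h stood at 0.727, 2.57 and 7.44 CPM in PCI and 18.9, 6.47 and 9.77 CPM in CTL, which overlapped (−1.72 ± 0.57; adjusted p = 0.122; 0.0352 with DESeq2). Without PCI 8 h replicate 3 it was called (−2.81; adjusted p = 0.00867), and without CTL 8 h replicate 1 it was −1.19 (adjusted p = 0.542). For Nfkb1, Nfkb2, Rela, Nfkbia, Nfkbib, Irf1 and Bst2 the difference was at most 0.29 on the log2 scale in size at the 3 times, with SEs up to 0.29. This does not show that the arms were alike.

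**Figure D4:**
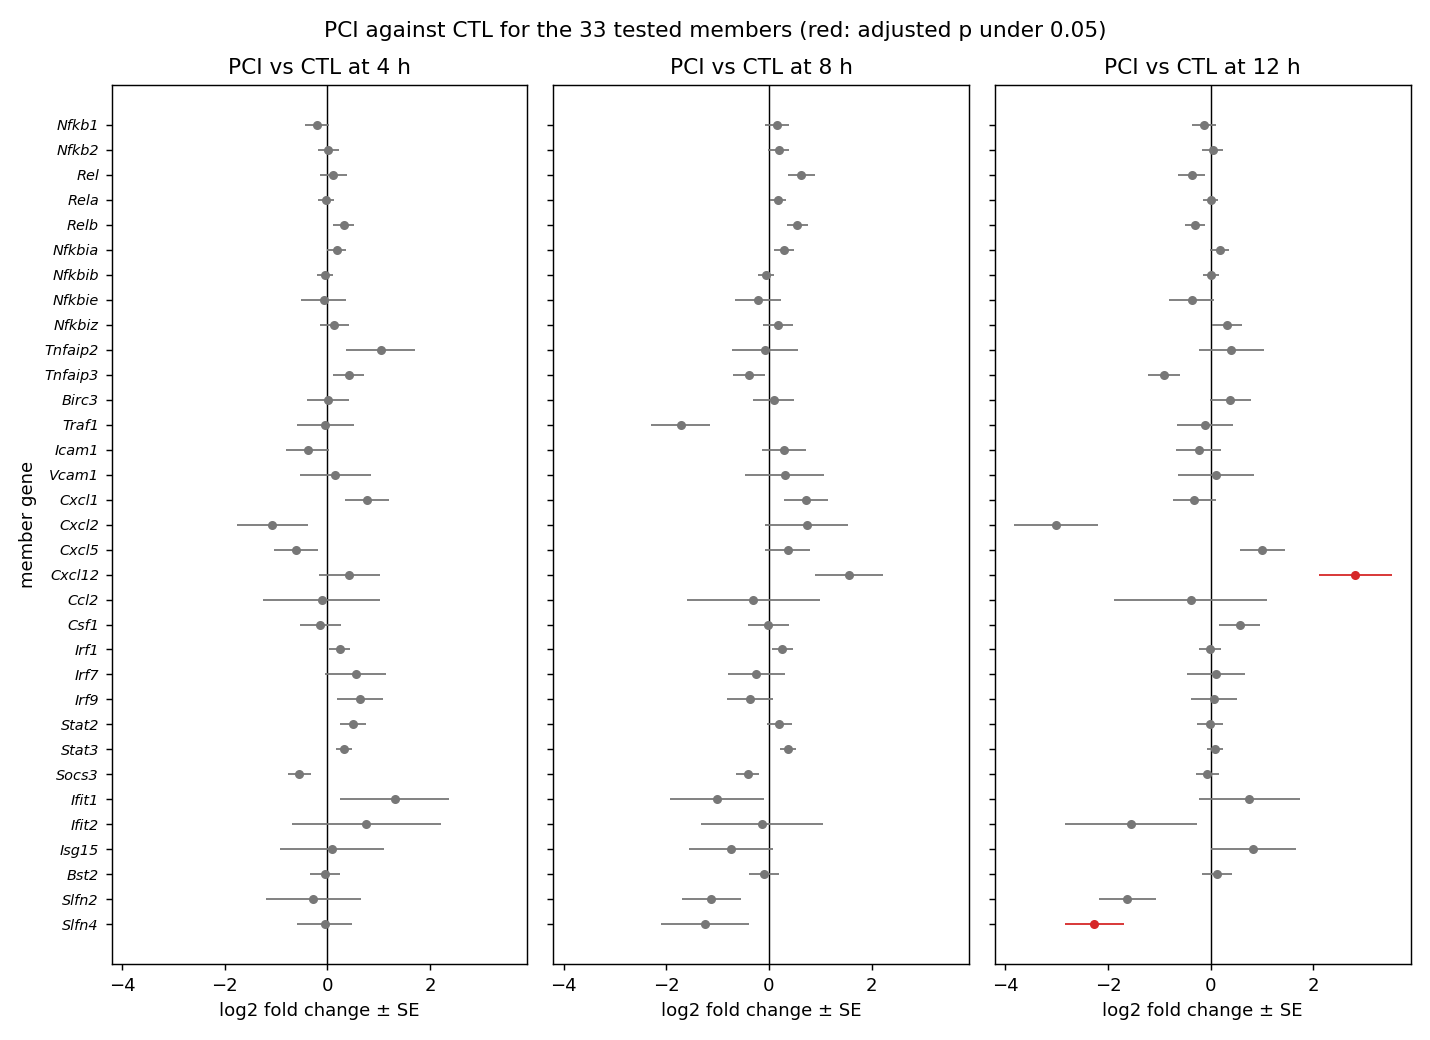
Log2 fold change of PCI against CTL ± SE (horizontal axes) for the 33 tested genes (vertical axis) at 4, 8 and 12 h. The only red points, with an adjusted p under 0.05, are Cxcl12 at 2.82 and Slfn4 at −2.27, both at 12 h.

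**Figure D5:**
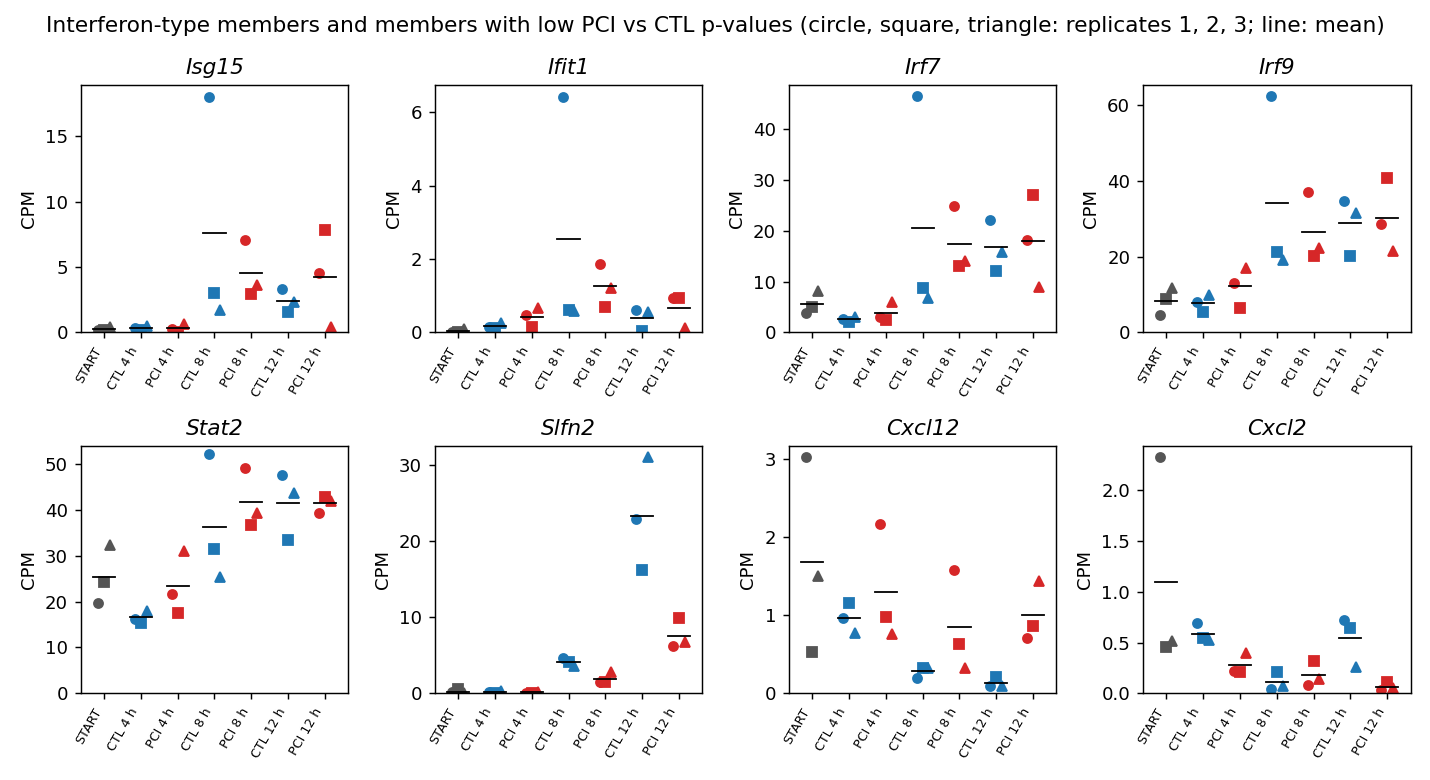
Levels (CPM, vertical axes from 0) of Isg15, Ifit1, Irf7, Irf9, Stat2, Slfn2, Cxcl12 and Cxcl2 in the 7 groups, 1 symbol per library and a line at the mean of 3. CTL 8 h replicate 1 (circle) stands at 18.0 CPM for Isg15 and 62.3 CPM for Irf9, far above replicates 2 and 3, and Slfn2 at 12 h is lower in all PCI libraries.

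Genes that act with these were read from lists, whose counts stand beside 16.2% of all genes higher and 15.3% lower at CTL 4 h and 25.1% and 26.0% at CTL 12 h. Of 24 genes of NF-kB upstream signalling, 11 rose and 2 fell at CTL 4 h and 16 rose and 2 fell at CTL 12 h. They included the interleukin-1 receptor gene Il1r1 (means of 70.3 CPM in START and 781 CPM at CTL 4 h; 3.47 ± 0.19), the receptor kinase gene Irak2 (25.2 and 135 CPM; 2.42 ± 0.27) and Ikbkb, which encodes the canonical IkB kinase IKK-beta (41.3 and 65.7 CPM; 0.67 ± 0.12). Map3k14, which encodes the kinase NIK of the non-canonical pathway, also rose (2.43 CPM in START and 24.7 CPM at CTL 12 h; 3.35 ± 0.28). Of 13 inhibitors and cofactors, 4 rose and 1 fell at 4 h and 6 rose and 2 fell at 12 h. Bcl3, a nuclear partner of p50 and p52, went from 0.122 CPM in START to 11.2 CPM at CTL 12 h (6.47 ± 0.54), and Cyld, a deubiquitinase, from 27.6 to 79.3 CPM (1.52 ± 0.22). The caspase-8 inhibitor gene Cflar rose at 4 h (1.01 ± 0.16).

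Of 9 tested receptors of the chemokines and colony-stimulating factors, 4 rose and 0 fell at CTL 4 h (edgeR; 5 had an unadjusted p under 0.05). The CXCL12 receptors Cxcr4 (0.618 CPM in START and 11.3 CPM at CTL 4 h; 4.17 ± 0.47) and Ackr3 (4.57 and 24.0 CPM; 2.39 ± 0.31) rose while Cxcl12 was not called at that time. Csf2rb, the shared receptor chain for granulocyte-macrophage colony-stimulating factor, had 0 counts in START and 941 in CTL at 4 h, at least 319-fold higher against a floor of 3 counts over the START group. With the inhibitor at 8 h Csf2rb was higher (24.4 against 6.08 CPM; 2.00 ± 0.53; adjusted p = 0.0438). Of 9 other chemokines, 2 rose and 0 fell at 4 h (edgeR; 3 had an unadjusted p under 0.05). Cxcl3, which shares its receptor with Cxcl1 and Cxcl2, rose from 0.644 to 25.5 CPM (5.30 ± 0.47; adjusted p = 5.34e-08) while Cxcl1 fell, and Cxcl16 rose from 1.09 to 2.65 CPM (1.28 ± 0.33).

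Of 17 interferon ligand, receptor and JAK-STAT genes, 3 rose and 4 fell at CTL 4 h and 6 rose and 4 fell at CTL 12 h, where 16.2% and 15.3% of all genes did at 4 h and 25.1% and 26.0% at 12 h. The receptor gene Il10rb rose from 7.17 to 40.9 CPM by CTL 12 h (2.51 ± 0.18), Irf3 from 16.7 to 56.3 CPM (1.75 ± 0.17) and the kinase gene Tyk2 from 24.0 to 79.8 CPM (1.73 ± 0.14). The kinase gene Jak1 was lower at 4 h (−1.33 ± 0.21). From CTL 4 h to CTL 8 h 12.1% of all genes rose and 11.1% fell. Of 8 sensors and adaptors of interferon induction, 6 rose and 0 fell between these times (edgeR; 6 had an unadjusted p under 0.05). They included the RNA receptor Tlr7 (0.198 to 3.03 CPM; 3.89 ± 0.68) and the adaptor Sting1 (1.85 to 5.35 CPM; 1.53 ± 0.43). Unc93b1, which carries nucleic acid receptors to endosomes, fell from 25.2 to 2.37 CPM by CTL 4 h (−3.41 ± 0.30). Its mean at CTL 12 h was 17.0 CPM. Of 9 antigen presentation genes, 0 rose and 5 fell at CTL 4 h (edgeR; 6 had an unadjusted p under 0.05), led by the immunoproteasome subunit Psmb9 (14.4 to 0.409 CPM; −5.13 ± 0.62) and the peptide transporter Tap1 (26.3 to 3.34 CPM; −2.98 ± 0.44). By CTL 12 h the mean of Tap1 was 20.1 CPM and that of Psmb9 1.60 CPM. Psmb10 averaged 9.44, 2.59 and 14.5 CPM in START, CTL 4 h and CTL 12 h, and Tapbp 29.3, 16.2 and 70.5 CPM.

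Of the same lists, Csf2rb and the guanylate-binding protein gene Gbp2 (5.98 against 1.22 CPM; 2.30 ± 0.48; adjusted p = 0.00846) were called higher with the inhibitor at 8 h. Over the mean of the 3 times, Rsad2, which encodes viperin, was higher (1.84 against 0.446 CPM; 1.98 ± 0.40; adjusted p = 0.00381), as were Psmb10 (0.73 ± 0.19; adjusted p = 0.0260) and Unc93b1 (0.69 ± 0.16; adjusted p = 0.0114). Oasl2 (−0.77 ± 0.19; adjusted p = 0.0168), Irak2 (−0.54 ± 0.15; adjusted p = 0.0282) and the tumour necrosis factor receptor gene Tnfrsf1b (−0.56 ± 0.13; adjusted p = 0.0150) were lower. Among all tested genes 1.95% were called higher and 1.72% lower at 8 h, and 2.53% and 3.54% over the mean. The genes named here were picked out of all the lists, so they do not show an effect of the inhibitor on these pathways.

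Some counts are uncertain as to where reads were placed. Reads of the near copies Cxcl1 and Cxcl2, Ccl2 and Ccl7, Ifit1 and Ifit1bl1, and the Schlafen genes could be split between them. On mm39 Irf9 overlaps Rnf31 on the same strand and Nfkb1 overlaps a lowly counted predicted gene. Irf7, Stat3, Nfkb2, Nfkbib and Slfn2 overlap genes on the other strand, and the sources used here do not state the strand setting of the counting.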

How the data were processed

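RNA of 21 COC libraries was sequenced after poly(A) selection with a stranded kit, per the labels' protocols. The deposited table holds raw counts. Per the submitters' processing notes, which give no order or role, the authors used cutadapt, STAR and HTSeq with the mm39 build. The sources used here do not state the annotation release or strand setting, and every column was matched to a sample by its name.

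Counts were filtered with filterByExpr (18192 genes kept, with 99.9% or more of each library's counts), scaled by TMM and fitted with 1 mean per group in edgeR 4.0.16 (limma 3.58.1, R 4.3.3). All 21 libraries entered the fit, with 14 residual degrees of freedom. Each of 12 comparisons was tested by edgeR's quasi-likelihood test (robust, two-sided), and p-values were adjusted by Benjamini-Hochberg over all 18192 genes. This test gave each adjusted p that names no other tool. The SE of a log2 change is its size over the square root of F, and fold changes are at the default prior count. CPM are relative to TMM-scaled library size. Intervals and floors cover counting error only.

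The code was tested on simulated data: for CTL 4 h against START (17699 genes simulated) 33% of 2-fold and 81% of 4-fold changes were recovered, and for PCI against CTL at 8 h (17669 genes) 38% and 73%. In each run all groups shared a common mean except for 200 changed genes, none of them with few counts. These rates describe the code on such data and not the power of the comparisons here. No replicate pair agreed within sampling noise (lowest chi-square per degree of freedom 23.6). Same-numbered libraries deviated together in every pair (correlation over 0.1) only for PCI against CTL at 4 h (0.143 to 0.524) and 8 h (0.108 to 0.267) and CTL 12 h against 8 h (0.170 to 0.234).

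The members and lists were chosen with earlier results of these data known. The rule named every member, with values in every library for the 12 with the smallest p at CTL 4 h against START and for those called in any comparison of PCI with CTL, and up to 4 genes of each further list by the smallest p against START or between PCI and CTL at any time. Library values of other members, and Parp14, Xaf1, Ifih1, Ddx58, Gbp2, Rsad2 and Tnfrsf1b, were added after their values were seen. Alternatives were RLE size factors, library size alone, no count filter, a replicate block, only the compared groups in the fit, DESeq2 1.42.0 and leaving out each library. The oocyte covariate, which is the mean log2 CPM of the 12 oocyte markers, and list counts under each setting were added after seeing the data.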

Additional observations from a re-analysis of the deposited data

How the results depend on the processing

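Over 87 called results of single members, 86 were kept with RLE size factors, 86 with library size alone, 73 with no count filter, 75 with only the compared groups in the fit and 87 with DESeq2; leaving out 1 library at a time kept 444 of 534. The oocyte covariate, chosen after seeing the data, kept 68, ended 17 and turned 2: Ccl2 (3.30, from −3.57) and Stat2 (−0.16, from 0.71), both at CTL 12 h against START. With the replicate block 86 were kept, and the count for PCI against CTL at 12 h went from 2 to 1, with Slfn4 lost (adjusted p = 0.0641); it changed no other call of these 87. That count was 1 with no count filter and 4 with DESeq2. From PCI 4 h to PCI 8 h the count fell from 10 to 5 with only the compared groups in the fit. From PCI 8 h to PCI 12 h it was 0, and 1 with only the compared groups, 3 with DESeq2 and 5 with the oocyte covariate. For PCI against CTL at 8 h it was 0, and 1 with DESeq2 (Traf1) and 1 with the covariate (Birc3). Over the mean of the times it was 1, and 3 with DESeq2 and 2 with the covariate. The cause of these shifts was not tested.

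Leaving out 1 library gave 12 to 16 calls for CTL 4 h, 21 to 23 for CTL 8 h and 16 to 24 for CTL 12 h against START, 7 to 11 from CTL 4 h to 8 h, 1 to 4 from CTL 8 h to 12 h, 6 to 12 from PCI 4 h to 8 h and 0 to 1 from PCI 8 h to 12 h. For PCI against CTL it gave 0 at 4 h, 0 to 1 at 8 h, 0 to 1 at 12 h, 1 to 2 over the mean and 0 for the change with time. An arm left with 2 libraries was assumed to vary like the others. Library size alone moved the median of all genes from −0.05 to −0.17 at CTL 4 h and from −0.06 to −0.16 at CTL 12 h against START. Members under about 1 CPM, such as Cxcl2, Cxcl12 and Ifit2, are limited by depth.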
